A study of Mus musculus with 4 samples.

Results

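The 4 mouse TCF/LEF genes (Tcf7, Tcf7l1, Tcf7l2 and Lef1) and Ctnnb1, the gene of beta-catenin, were followed in sorted stem cells from the mouse large and small intestine. These 5 genes were picked by name, and all 5 were found among the 55487 genes of the RNA-seq tables. The cells were freshly isolated from crypts of untreated mice, 6 to 12 weeks of age, of the genotype Lgr5-EGFP-IRES-creERT2. In this genotype the stem cell gene Lgr5 drives the fluorescent reporter and a tamoxifen-inducible Cre. Large-intestinal stem cells (LISC) were sorted as Lgr5-EGFP+ from the stretch between cecum and rectum. The small-intestinal counterpart (SISC) was gated on Lgr5-EGFP+ and CD24- and came from segments of 2 to 3 cm beside the pylorus and beside the cecum. The groups thus differ in the CD24 gate as well as in the organ, and the sources used here name no CD24 gate for LISC. Each group held 2 libraries. Nothing in the labels ties the replicates to separate animals, and p-values reflect only how far these samples spread, which could be technical.

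TCF/LEF proteins bind DNA through a high-mobility-group (HMG) box. Without a Wnt signal they sit on Wnt target genes together with TLE co-repressors, while a destruction complex built on Axin and APC marks beta-catenin for breakdown. When Wnt ligands stop that complex, beta-catenin enters the nucleus, binds the TCF/LEF proteins and switches the targets on, a signal on which the stem cells of the intestinal crypt depend. The family members are not interchangeable: in mouse, Tcf7l2 is needed for the proliferating crypts of the small intestine, Tcf7l1 acts mostly as a repressor in embryonic stem cells and skin, and Tcf7 and Lef1 are best known from T cells. Beta-catenin has a further role at the plasma membrane, where it ties E-cadherin to the actin skeleton.

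Total expected counts were 12795434 and 24142212 in LISC replicates 1 and 2, and 16490485 and 27227715 in SISC replicates 1 and 2. Ribosomal RNA genes took 36.6% and 0.304% of the counts in the LISC libraries and 31.8% and 0.246% in the SISC libraries, so the replicate 1 libraries stand apart from the replicate 2 libraries in both groups. Differences within each replicate number are therefore given beside the pooled ones. The sorted type was checked against its markers: 8 epithelial markers were read in every library, at summed levels of 5993 and 8520 CPM in LISC and 6287 and 6747 CPM in SISC (CPM, counts scaled to library size, here always with TMM factors). The 6 Lgr5 stem cell markers summed to 748 and 522 CPM in LISC and 8786 and 13557 CPM in SISC, of which Olfm4 alone gave 91.5 and 108 CPM in LISC and 7765 and 12472 CPM in SISC. Lgr5 itself was at 147 and 89.7 CPM in LISC and 114 and 173 CPM in SISC. T cell markers, which matter here because T cells express Tcf7 and Lef1, summed to 5.84 and 13.3 CPM over 12 genes in LISC and 4.44 and 4.65 CPM in SISC, mostly from Lck and Ptprc, with Cd3d and Cd4 at 0 counts in all 4 libraries. The list of 12 mesenchymal markers summed to 5.47 and 7.05 CPM in LISC and 7.20 and 2.56 CPM in SISC, with Lum at 0 throughout.

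The 4 family genes are related but distinct in sequence, which bears on how well short reads separate them. The best conserved coding stretch of 120 bases lies in the exons that encode the HMG box and the basic tail behind it. It is shown for 1 transcript of each gene, from the GENCODE vM21 annotation and the GRCm38 genome, read 5′ to 3′ on the gene's strand with the intron between its parts left out. Capitals mark bases that differ from Tcf7l1. It lies in exons 10 and 11 of 12 of Tcf7l1 (chr6:72630002-72631101, minus strand), exons 8 and 9 of 10 of Tcf7 (chr11:52256277-52256829, minus strand), exons 10 and 11 of 14 of Tcf7l2 (chr19:55919529-55923925, plus strand) and exons 9 and 10 of 12 of Lef1 (chr3:131200313-131204285, plus strand).
Tcf7l1: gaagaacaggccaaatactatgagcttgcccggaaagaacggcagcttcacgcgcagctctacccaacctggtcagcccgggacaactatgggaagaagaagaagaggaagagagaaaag
Tcf7: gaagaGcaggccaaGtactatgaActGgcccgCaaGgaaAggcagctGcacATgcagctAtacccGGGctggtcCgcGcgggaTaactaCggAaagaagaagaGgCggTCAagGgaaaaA
Tcf7l2: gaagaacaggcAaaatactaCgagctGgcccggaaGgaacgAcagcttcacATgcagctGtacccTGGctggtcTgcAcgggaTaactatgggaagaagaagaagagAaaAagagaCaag
Lef1: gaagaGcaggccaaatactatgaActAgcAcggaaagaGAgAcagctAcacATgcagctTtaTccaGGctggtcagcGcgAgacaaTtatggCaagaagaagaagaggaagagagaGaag
Of the 120 bases, 94 were the same in Tcf7 as in Tcf7l1 (78.3%), 103 in Tcf7l2 (85.8%) and 101 in Lef1 (84.2%). Over all annotated transcripts of the 4 genes, the longest identical run was 14 to 23 bases, depending on the pair of genes. The authors' RSEM files give a posterior standard deviation for each gene's count, which is above 0 where reads were divided among genes. It was 0 for all 4 TCF/LEF genes in all 4 libraries, and at most 0.03 counts for Ctnnb1, while 13.6% to 19.2% of genes with at least 10 counts had a value above 0.

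Tcf7l1 (ENSMUSG00000055799, chr6:72626378-72789254, minus strand), which encodes the family's repressor, was the member called different between LISC and SISC. It had 66 and 338 counts in the LISC libraries, against 5 and 4 in the SISC libraries. Its scaled levels were 6.12 and 11.6 CPM in LISC and 0.364 and 0.125 CPM in SISC. Thus both LISC libraries lay far above both SISC libraries. In either direction, the groups did not overlap for 40.3% of the genes tested. The exact Poisson 95% intervals, which cover counting error only, ran from 4.73 to 7.78 and from 10.4 to 12.9 CPM in LISC, and from 0.118 to 0.849 and from 0.0340 to 0.320 CPM in SISC.

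Mean levels of Tcf7l1 were 8.87 ± 3.89 CPM in LISC and 0.244 ± 0.169 CPM in SISC (SD, n = 2 each), a 39.0-fold higher level in LISC with a 95% interval from 9.79 to 156. The log2 difference was 5.29 ± 0.77 (SE) and passed edgeR's quasi-likelihood test narrowly (Benjamini-Hochberg adjusted p = 0.0494). Tcf7l1 passed the filter on low counts through its LISC libraries alone, so that it could enter the test only as a gene higher in LISC. For comparison, 206 of the 14165 genes tested were called higher in LISC at an adjusted p below 0.05, a background of 1.45%. Tcf7l1 came 305th by p-value among the 311 genes called in either direction, and the size of its difference stood at percentile 97.9 of all genes tested. The difference was 4.07 within replicate 1 and 6.54 within replicate 2, on the log2 scale. The call was lost without LISC replicate 2 (log2 4.71, edgeR adjusted p = 0.132) and without SISC replicate 2 (log2 4.56, edgeR adjusted p = 0.0640). It was also lost with DESeq2's size factors in edgeR (adjusted p = 0.0553), with rRNA and mitochondrial genes removed (edgeR adjusted p = 0.0558) and in limma fits on unfiltered log2(TPM + 1) and log2(TPM + 0.1) (adjusted p = 0.713 and 0.411). Of the 12 alternative fits that kept Tcf7l1, 6 called it. DESeq2 did so (adjusted p = 1.03e-08), as did edgeR without a filter on low counts (adjusted p = 7.57e-11). Both fits also called more genes higher in LISC, 779 by DESeq2 and 942 of 24003 without the filter, against 206 of 14165 above. Without the filter the Tcf7l1 difference itself hardly changed, at 5.29 ± 0.74 (SE). In bulk samples such as these, fewer cells of a type and less RNA per cell cannot be told apart.

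Markers of other crypt cell types stood at other levels in the groups as well, although none of those given here was called. Goblet cell markers summed to 3080 and 4180 CPM over 6 genes in LISC and 1845 and 321 CPM in SISC, and Paneth cell markers to 52.1 and 26.6 CPM over 6 genes in LISC and 8445 and 1306 CPM in SISC. Their part in the level of Tcf7l1 was not tested, nor was that of the mesenchymal markers. Pdgfrb gave most of the mesenchymal sum in LISC, at 4.26 and 4.78 CPM, and stood at 2.18 and 1.56 CPM in SISC. Vim gave most of that sum in SISC replicate 1, at 4.87 CPM. It stood at 0.750 CPM in SISC replicate 2 and at 0.834 and 0.756 CPM in LISC. Endothelial markers were close to absent, at 0.278 and 0.309 CPM over 6 genes in LISC and 0 and 0.344 CPM in SISC. The 8 myeloid and B cell markers summed to 0.927 and 1.31 CPM in LISC and 2.69 and 2.75 CPM in SISC.

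Tcf7 (ENSMUSG00000000782, chr11:52252371-52283014, minus strand), whose full-length protein binds beta-catenin, was read at 17.1 and 13.4 CPM in LISC and 22.3 and 24.0 CPM in SISC. The LISC libraries were the lower ones and the groups did not overlap, as was the case, in either direction, for 40.3% of the genes tested. The mean was 15.3 ± 2.64 CPM in LISC and 23.1 ± 1.15 CPM in SISC (SD, n = 2 each). The log2 difference of −0.60 ± 0.26 (SE) had a 95% interval from −1.27 to 0.07 and did not pass (edgeR adjusted p = 0.440). It was −0.38 within replicate 1 and −0.84 within replicate 2.

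Tcf7l2 (ENSMUSG00000024985, chr19:55741820-55933654, plus strand), which encodes the factor needed by small-intestinal crypts, was read at 31.3 and 24.7 CPM in LISC and 28.7 and 25.1 CPM in SISC. The LISC values enclosed the SISC values. The log2 difference was 0.06 ± 0.25 (SE; edgeR adjusted p = 0.9995), with a 95% interval that spans folds of 0.668 to 1.63. It was 0.13 within replicate 1 and −0.02 within replicate 2.

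Lef1 (ENSMUSG00000027985, chr3:131110471-131224356, plus strand) was close to the limit of detection. It had 0 and 6 counts in LISC and 6 and 54 counts in SISC, that is 0 and 0.206 CPM in LISC and 0.437 and 1.69 CPM in SISC. A count of 0 in LISC replicate 1 allows up to 0.278 CPM, which lies within the exact 95% interval of SISC replicate 1 (0.160 to 0.9502 CPM). Most of the signal came from SISC replicate 2, the deepest library. Lef1 did not pass the filter on low counts and has no edgeR value from the 4 libraries, so 4 of the 5 genes were tested. The ratio of pooled counts, scaled to library size, was 0.115 for LISC over SISC, with an exact 95% interval from 0.0405 to 0.265 for counting error alone. The summed T cell markers were at 5.84 and 13.3 CPM in LISC and 4.44 and 4.65 CPM in SISC. Single markers on that list went in both directions. Cd247 had 0 and 5 counts in LISC and 1 and 19 in SISC. Ptprc had 14 and 139 counts in LISC and 5 and 15 in SISC, and Lck 45 and 205 in LISC and 52 and 89 in SISC. The part of T cells in the Lef1 counts was not tested.

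Ctnnb1 (ENSMUSG00000006932, chr9:120929216-120960507, plus strand), the shared partner of the 4 factors, was read at 464 and 528 CPM in LISC and 401 and 571 CPM in SISC. The SISC values enclosed the LISC values. The log2 difference was 0.03 ± 0.38 (SE), with a 95% interval that spans folds of 0.521 to 2.00 (edgeR adjusted p = 0.9995). It was 0.21 within replicate 1 and −0.11 within replicate 2.

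**Figure D1:**
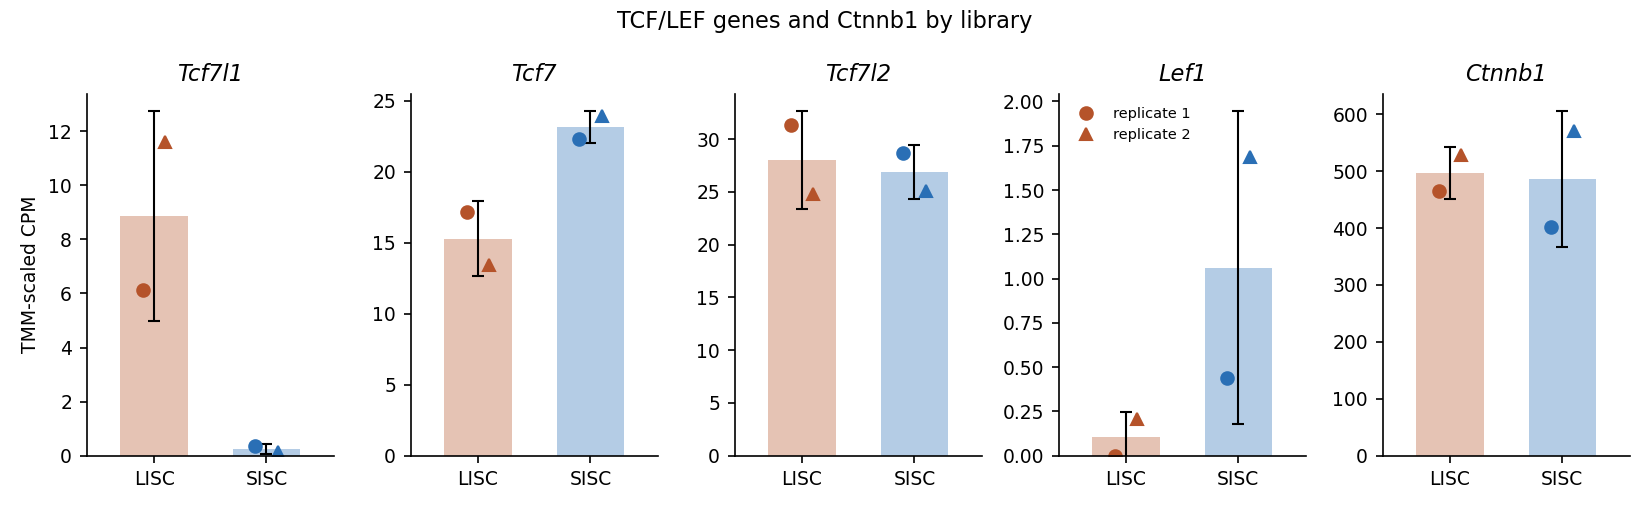
TMM-scaled CPM of the 4 TCF/LEF genes and Ctnnb1 on linear axes from 0, with 1 panel and 1 scale per gene. Bars are group means and error bars the SD of 2 libraries (cut off at 0), and circles and triangles are replicates 1 and 2. Tcf7l1 stood at 6.12 and 11.6 CPM in LISC and below 0.4 CPM in SISC, while the groups overlapped for Tcf7l2 and Ctnnb1.

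**Figure D2:**
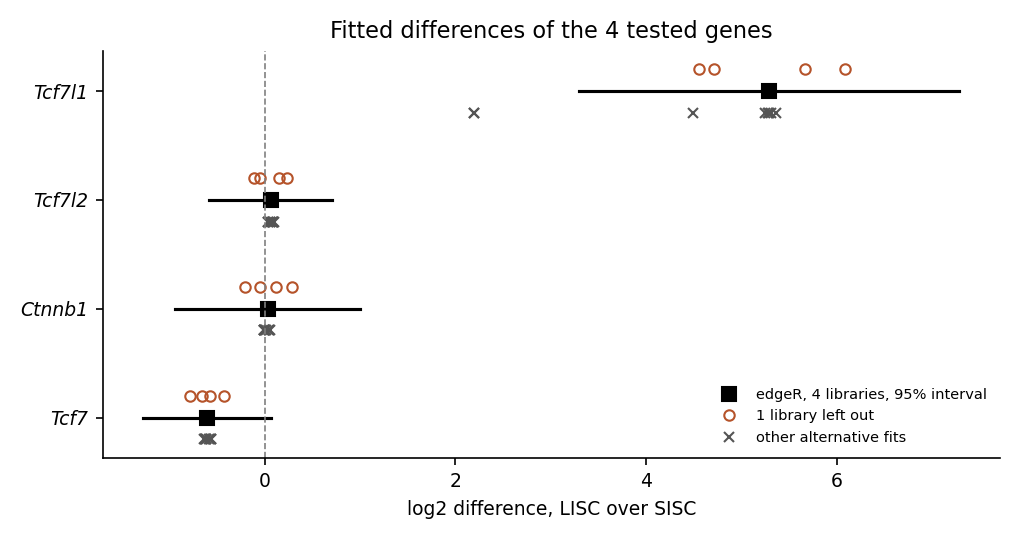
Log2 differences, LISC over SISC, of the 4 genes that could be tested. Squares and lines are the edgeR estimate and its 95% interval, open circles are fits with 1 library left out, and crosses are the other alternative fits. Tcf7l1 stayed between 2.20 and 6.09 in these fits, and the values of Tcf7l2 and Ctnnb1 lay on both sides of 0.

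Levels of different genes were compared in deposited TPM, a transcript abundance scaled to a fixed sum per library, which take transcript length into account. Ctnnb1 was far above the factors, at 278 ± 136 TPM in LISC and 282 ± 145 TPM in SISC (SD, n = 2 each). Its library values were 181 and 374 TPM in LISC and 179 and 385 TPM in SISC, a split by replicate number. With rRNA and mitochondrial genes removed from the scaling the split remained, at 238 and 437 TPM in LISC and 249 and 438 TPM in SISC. Per library, Ctnnb1 had 12.1 and 14.3 times the summed TPM of the 4 factors in LISC and 11.9 and 16.6 times in SISC. That ratio is taken within a library and so does not depend on its rRNA content. Among all genes tested, the mean TPM of Ctnnb1 stood at percentile 97.6, that of Tcf7l2 at 53.4, Tcf7 at 50.7 and Tcf7l1 at 26.3. Lef1 was not itself tested, and its mean TPM, set against the tested genes, fell at percentile 2.88.

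The order of the factors differed between the groups. In LISC it was Tcf7l2 (8.37 and 10.3 TPM), Tcf7 (4.94 and 7.71 TPM), Tcf7l1 (1.68 and 7.97 TPM) and Lef1 (0 and 0.13 TPM). Tcf7l2 did not overlap with Tcf7 there, the ranges of Tcf7 and Tcf7l1 overlapped, and Lef1 was below both Tcf7l1 values. In SISC the order was Tcf7 (7.25 and 12.7 TPM), Tcf7l2 (7.65 and 9.87 TPM), Lef1 (0.09 and 0.62 TPM) and Tcf7l1 (0.09 and 0.05 TPM). The ranges of Tcf7 and Tcf7l2 overlapped there, and those of Lef1 and Tcf7l1 met at 0.09 TPM. The ratio of Tcf7 to Tcf7l2 within a library was 0.590 and 0.746 in LISC, and 0.948 and 1.29 in SISC, so it was lower in both LISC libraries.

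The summed TPM of the 4 factors overlapped between the groups, at 15.0 and 26.1 in LISC and 15.1 and 23.2 in SISC, while its make-up differed. Tcf7l1 made up 11.2% and 30.5% of that sum in LISC and 0.597% and 0.215% in SISC, a mean of 20.8 ± 13.6% in LISC and 0.406 ± 0.270% in SISC (SD, n = 2 each). Both LISC libraries lay above both SISC libraries. With 2 libraries against 2, the two-sided exact permutation test cannot give less than p = 0.3333, and that was the p obtained. Tcf7 made up 33.0% and 29.5% in LISC and 48.1% and 54.6% in SISC, again without overlap. The share of Tcf7l2 overlapped, at 55.8% and 39.5% in LISC and 50.7% and 42.5% in SISC. Lef1 held 0% and 0.497% in LISC and 0.597% and 2.67% in SISC. Shares of 1 sum are not independent of each other, since a higher share of Tcf7l1 leaves less for the rest. Taken in expected counts, which are not divided by transcript length, the Tcf7l1 share was 11.2% and 23.2% in LISC. In SISC it was 0.702% and 0.246% by counts.

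**Figure D3:**
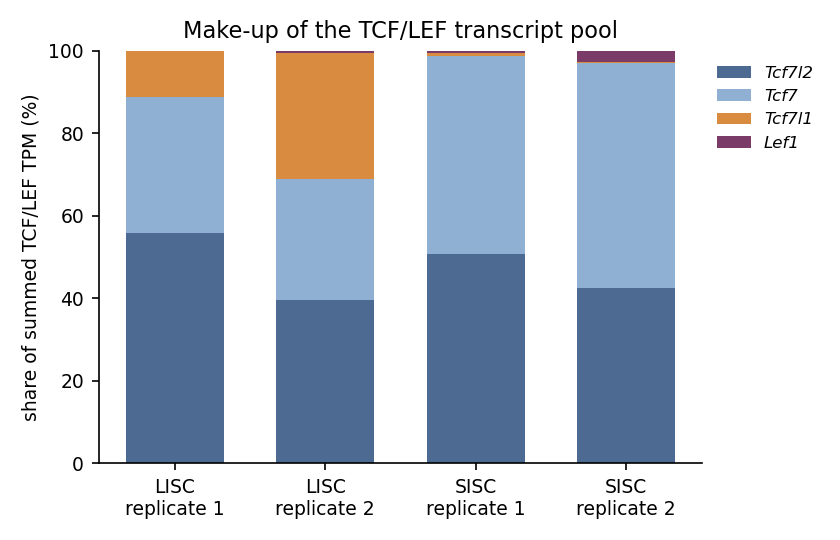
Share of each gene in the summed TPM of the 4 TCF/LEF genes, in percent, for each library. Tcf7l1 holds 11.2% and 30.5% in the LISC libraries and under 1% in the SISC libraries, and Tcf7 holds 33.0% and 29.5% in LISC and 48.1% and 54.6% in SISC.

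The gene tables also give, per library, a gene's transcript length weighted by the estimated abundance of its transcripts. This length moves with any change in the proportions of transcripts of unlike length. For Tcf7l1 it was 2495 and 2037 bases in LISC and 3042 bases in both SISC libraries. A length of 3042 bases is that of the transcript Tcf7l1-201, but the SISC values rest on 5 and 4 counts. The LISC values lie between 3042 bases and the 1888 bases of Tcf7l1-202, the only other Tcf7l1 transcript longer than 713 bases of the 5 annotated. The 2 transcripts differ in coding sequence by 1 exon of 42 bases, exon 5 of 13 in Tcf7l1-202 (GRCm38, chr6:72648801-72648842, minus strand), which lengthens the coding sequence to 1797 bases against 1755. It is printed in capitals, with 12 bases of the exons joined on each side.
Tcf7l1-202 exon 5: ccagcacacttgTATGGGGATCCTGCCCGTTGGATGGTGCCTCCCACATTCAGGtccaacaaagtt
Tcf7l1-202 is also shorter by 302 bases at the 5′ end and 894 bases at the 3′ end, so a lower weighted length does not show that the extra exon was used. The tables give no value per transcript, and no test was made of the lengths.

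For Tcf7 the weighted length was almost the same in all libraries, at 2388 and 2395 bases in LISC and 2416 and 2401 bases in SISC. Alternative starts of Tcf7 yield proteins with and without the beta-catenin binding region. The 2 Tcf7 transcripts found in the annotation both have 909 coding bases, so the weighted length does not show which protein form was made. For Tcf7l2, which has 22 annotated transcripts and is known for alternative splicing of its last exons, it was 2556 and 3232 bases in LISC and 2872 and 3167 bases in SISC, lower in replicate 1 of each group. Ctnnb1 had 1826 and 1980 bases in LISC and 1841 and 1927 bases in SISC, which is below its full-length transcripts of 3623 and 2702 bases. The Lef1 lengths rest on at most 54 counts and are not compared.

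**Figure D4:**
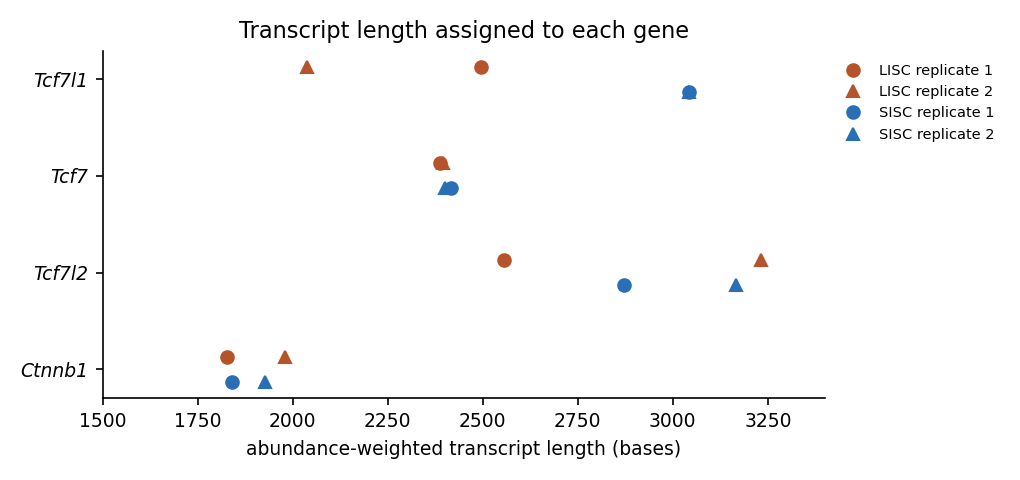
Abundance-weighted transcript length in bases, as deposited, for 4 of the genes, with LISC above SISC in each row; the axis does not start at 0. Tcf7l1 is at 2495 and 2037 bases in LISC and at 3042 bases in SISC, where only 5 and 4 counts stand behind each value, and Tcf7 is within 2388 to 2416 bases in all 4 libraries.

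An antisense gene overlaps Tcf7l1. Gm15401, within the Tcf7l1 locus (chr6:72629288-72637717, plus strand), shares 179 of its 1598 exon bases with Tcf7l1. It had 27 and 172 counts in LISC and 0 and 4 counts in SISC, or 2.50 and 5.91 CPM in LISC and 0 and 0.125 CPM in SISC. The log2 difference of 5.66 ± 1.15 (SE) did not pass (edgeR adjusted p = 0.1003). Gm15401 passed the filter on low counts through its LISC libraries alone, so it could enter the test only as higher in LISC. The library kit marks strand, but which strand setting the authors' counting used is not given here. The posterior standard deviation of the count was 0 for both genes in all 4 libraries, so no division of reads between them was recorded. The antisense gene Gm43352 shares 1208 exon bases with Lef1 and had 0 and 0 counts in LISC and 0 and 1 in SISC. Ulk4, a kinase gene on the other strand, shares 759 exon bases with Ctnnb1 and had 16 and 22 counts in LISC and 18 and 13 in SISC, against at least 5012 for Ctnnb1. No gene overlapping Tcf7 or Tcf7l2 in its exons was found in the annotation.

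Genes that work with the TCF and beta-catenin complex were described in 5 lists, beside a median log2 difference of −0.02 over all 14165 genes tested. In either direction 2.2% of those genes were called, and 0.741% were called lower in LISC. An unadjusted edgeR p below 0.05 was found for 1899 of the 14165 genes. DESeq2, given all 55487 genes, called 779 higher and 389 lower in LISC. Among 14 co-activators, which help beta-catenin to switch targets on, 13 were tested and none passed edgeR's test, nor did any have an unadjusted p below 0.05, and DESeq2 called 0 as well. Their differences ran from −0.70 to 0.24 with a median of −0.28, which moved between −0.60 (without LISC replicate 1) and 0.17 (without SISC replicate 1) when 1 library was left out. Smarca4, a chromatin remodeller, was at 258 and 201 CPM in LISC and 358 and 244 CPM in SISC (log2 −0.39 ± 0.36, edgeR adjusted p = 0.869). Crebbp, a histone acetyltransferase, was at 90.6 and 61.4 CPM in LISC and 180 and 67.1 CPM in SISC (log2 −0.70 ± 0.54, edgeR adjusted p = 0.798).

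Of 16 co-repressors and inhibitors, 14 were tested and none was called (1 had an unadjusted p below 0.05, and DESeq2 called 1). The median was −0.08, with values from −0.28 (without LISC replicate 2) to −0.04 (without LISC replicate 1) when 1 library was left out, and the range −1.21 to 2.04. Aes, a short TLE family member, was at 256 and 399 CPM in LISC and 273 and 350 CPM in SISC (log2 0.07 ± 0.39, edgeR adjusted p = 0.9995). Ctbp1, a co-repressor, was at 168 and 200.05 CPM in LISC and 198 and 213 CPM in SISC (log2 −0.16 ± 0.30, edgeR adjusted p = 0.974). Both ends of the range belong to TLE co-repressors, which were chosen for mention after their values were seen. Tle4 was at 9.82 and 14.7 CPM in LISC and 30.2 and 26.8 CPM in SISC (log2 −1.21 ± 0.30, edgeR adjusted p = 0.154), and Tle2 at 5.47 and 1.51 CPM in LISC and 1.24 and 0.469 CPM in SISC (log2 2.04 ± 0.93, edgeR adjusted p = 0.478). In both genes the groups did not overlap, as in 5 of the 14 tested genes of this list and in 40.3% of all genes tested. Neither gene passed. Tle4 was called by DESeq2 (adjusted p = 0.0452) and by edgeR without a filter on low counts (adjusted p = 0.0186).

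Of 17 destruction complex genes and regulators, 16 were tested and none was called (1 had an unadjusted p below 0.05, and DESeq2 called 1). The median was −0.14, and it moved between −0.47 (without SISC replicate 2) and 0.19 (without SISC replicate 1) when 1 library was left out. Csnk1a1, the casein kinase that primes beta-catenin for breakdown, was at 215 and 272 CPM in LISC and 210.3 and 231 CPM in SISC (log2 0.14 ± 0.31, edgeR adjusted p = 0.986). Axin2, both a scaffold of the complex and a Wnt target, had the lowest difference of the list, −1.41 (−1.24 and −1.61 within replicates 1 and 2), and missed the threshold (edgeR adjusted p = 0.119), while it was called by DESeq2 (adjusted p = 0.00104) and by edgeR without a filter on low counts (adjusted p = 0.0371). Of 10 adherens junction genes, 7 were tested and none was called (0 had an unadjusted p below 0.05, and DESeq2 called 0), with a median of −0.07 that moved between −0.24 (without SISC replicate 2) and 0.12 (without SISC replicate 1) when 1 library was left out. Cdh1, E-cadherin, was at 675 and 728 CPM in LISC and 663 and 643 CPM in SISC (log2 0.10 ± 0.36, edgeR adjusted p = 0.999). Cdh17, an intestinal cadherin, was at 237 and 284 CPM in LISC and 334 and 357 CPM in SISC (log2 −0.40 ± 0.32, edgeR adjusted p = 0.804).

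All 18 Wnt target genes of the crypt were tested. None was called higher in LISC and 2 were called lower, with a range from −3.18 to 1.91. An unadjusted edgeR p below 0.05 was found for 5 of the 18, against 1899 of all 14165 genes tested. DESeq2 called 5 of the 18. The median was −0.21, and it was −0.50 without LISC replicate 1, −0.12 without LISC replicate 2, −0.34 without SISC replicate 1 and −0.14 without SISC replicate 2. Sp5, a zinc finger factor gene, was at 6.58 and 6.50 CPM in LISC and 30.0 and 37.5 CPM in SISC (log2 −2.37 ± 0.27, edgeR adjusted p = 0.0299). Tnfrsf19, a receptor gene, was at 6.12 and 4.23 CPM in LISC and 33.2 and 59.4 CPM in SISC (log2 −3.18 ± 0.42, edgeR adjusted p = 0.0410). Both LISC libraries were below both SISC libraries in each gene. In either direction, the groups did not overlap in 10 of the 18 targets and in 40.3% of all genes tested. The Sp5 call was lost without LISC replicate 1 (log2 −2.38, edgeR adjusted p = 0.0634) and without LISC replicate 2 (log2 −2.35, edgeR adjusted p = 0.0913), and the Tnfrsf19 call without LISC replicate 2 (log2 −2.91, edgeR adjusted p = 0.0705). Cdx1, an intestinal homeobox gene, was at 249 and 269 CPM in LISC and 183 and 166 CPM in SISC and did not pass (log2 0.57 ± 0.29, edgeR adjusted p = 0.567). Targets that missed the threshold include Nkd1 and Cd44, both chosen after their values were seen. Nkd1 was at 3.89 and 3.23 CPM in LISC and 14.3 and 10.4 CPM in SISC (log2 −1.80 ± 0.36, edgeR adjusted p = 0.0942). On the other side of 0, Cd44 was at 375 and 285 CPM in LISC and 133 and 132 CPM in SISC (log2 1.32 ± 0.32, edgeR adjusted p = 0.146). Of the 18 targets, 6 had a fitted difference above 0 and 12 below.

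**Figure D5:**
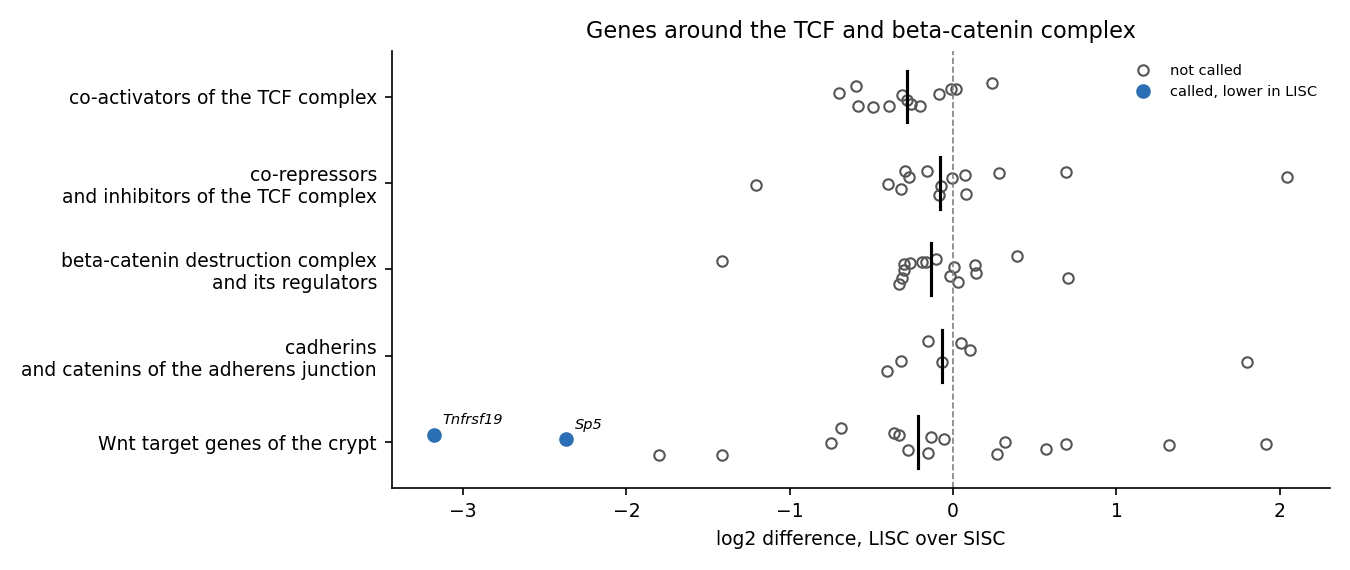
Log2 differences, LISC over SISC, of the tested genes in 5 lists around the TCF and beta-catenin complex. Each circle is a gene, filled where edgeR called it, and the black line is the list's median; points are spread up and down only for legibility. Sp5 and Tnfrsf19, both lower in LISC, are the called genes among the 5 lists.

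For each tested member, the genes most like it over the 4 libraries were sought among genes of similar mean level (mean log2 CPM within 1), by the root mean square distance of their centred log2 CPM. Tcf7l1 was nearest to Arhgap20 (distance 0.1003), Prr5l (0.294) and Serpinb5 (0.315) among 1999 candidates. Arhgap20 was read at 5.19 and 9.38 CPM in LISC and 0.291 and 0.0625 CPM in SISC. Tcf7 was nearest to Ctps, Slc35f2 and Efna4 at distances of 0.0582 to 0.0768, and Tcf7l2 to Hps5, Exd2 and Epm2aip1 at 0.0170 to 0.0273. Ctnnb1 was nearest to Ppib, Eif4a2 and Taldo1 at 0.0370 to 0.0533 among 310 candidates. With 4 points per gene, small distances of this kind describe these libraries only.

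Promoter windows of 300 bases, from 250 before to 50 after a start site, were taken from RefSeq on GRCm38.p6, and all 5 genes matched, with 11 windows. The TCF/LEF binding motifs searched on both strands were CTTTGAA and CTTTGAT, which differ in their last base. None of the 11 windows held either, against 8.65% of the 32851 windows of all genes. The shorter core CTTTG, contained in both, was in 7 of the 11 windows and in 53.9% of all windows. Start sites of 1 gene share sequence where they lie close together, and these letter matches in short windows describe no binding.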

How the data were processed

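Poly(A)-selected RNA of 2 LISC and 2 SISC libraries went into strand-marking libraries, per the labels' protocols. The submitters' processing notes name STAR 2.7.2b, RSEM 1.2.31 and the build GRCm38 (mm10). Neither the annotation release nor the strand setting is given in the sources used here. RSEM expected counts per gene were deposited by the authors, with TPM, transcript lengths and posterior standard deviations. Gene IDs were matched to GENCODE vM21 (55141 of 55487); of 3 Tcf7 transcripts in the files, 2 were in it, so the authors' release is another one. The 5 genes and all lists were chosen with earlier results of these data known.

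Expected counts were rounded and tested with edgeR 4.0.16 in R 4.3.3 (quasi-likelihood, TMM, filterByExpr with a minimum count of 10, group only, LISC over SISC, Benjamini-Hochberg over 14165 genes, threshold 0.05). SE is |log2 difference| over the square root of F. Of the 5 genes, 4 passed the filter, Tcf7l1 through LISC alone. A count of 0 allows 3 counts, or 0.0937 to 0.278 CPM. Replicates differed far beyond sampling noise (chi-square per degree of freedom 833 in LISC and 892 in SISC), so none is a copy. Alternatives used DESeq2 1.42.0 and limma 3.58.1. The text names the 5 members, called genes and the 2 genes of highest TPM per list, and 3 nearest genes per member. Tle2, Tle4, Nkd1, Cd44, Lgr5, Olfm4, single marker genes and overlapping genes were added after their values were seen.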

Additional observations from a re-analysis of the deposited data

How the results depend on the processing

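The count of genes called higher and lower in LISC was 206 and 105, and it moved with the method: 779 and 389 by DESeq2, 942 and 465 where low counts were not filtered, 63 and 31 with at least 1 CPM in all 4 libraries, 0 and 0 with limma on log2(TPM + 1), 0 and 1 on log2(TPM + 0.1), 258 and 151 on log2(TPM + 1) with a filter, and 166 to 338 and 79 to 149 with 1 library left out. Tcf7l1 was higher in LISC in all 12 alternative fits that kept it and was called in 6. Its log2 difference missed the threshold with DESeq2's size factors (5.25, edgeR adjusted p = 0.0553), with rRNA and mitochondrial genes removed (5.28, 0.0558), with limma on log2(TPM + 1) (2.20, 0.713) and log2(TPM + 0.1) (4.49, 0.411), and in 2 of the 4 fits with 1 library left out (range 4.56 to 6.09). The filter of 1 CPM in all 4 libraries removed Tcf7l1 and gave no value. The Tcf7l1 share of the TCF/LEF sum in LISC ranged from 11.2% to 30.5% over single libraries. Its mean in LISC was 20.8% in TPM and 17.2% in expected counts. Tcf7 stayed between −0.79 and −0.42 and was never called. Neither Tcf7l2 (−0.12 to 0.23 with 1 library left out) nor Ctnnb1 (−0.21 to 0.28, and −0.0123 in each of the 3 limma fits) kept its sign, and neither was called. Lef1, kept in 7 of the fits, was lower in LISC in each and never called. Of the Wnt targets, 0 to 6 were called over the alternatives. The cause of these differences between settings was not tested.

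The labels do not pair the replicate numbers. Same-numbered libraries deviated together (correlation 0.648 over genes). With the replicate block 1015 and 524 of the 14165 genes tested were called higher and lower in LISC, with Tcf7l1 at 5.36. The block also called Axin2 (−1.42, edgeR adjusted p = 0.00803) and Tle4 (−1.22, 0.0338). In all it called 2 of the 14 tested genes of the co-repressor list and 6 of the 18 Wnt targets. Depth limits Lef1 and the SISC value of Tcf7l1, which rests on 5 and 4 counts.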
